A study of Homo sapiens with 3 samples.

Results

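In Hep3B cells, a human hepatocellular carcinoma line, 468 of 111495 autosomal windows of 1 kb (0.42%) had a methylation level at least 25 percentage points higher in SOX4 knockout line 1 than in the parental cells. These windows, called members here, are the subject of what follows. A window's level is the mean, over its CpGs, of the share of reads that kept a methylated cytosine. A window was used if it held at least 5 CpGs with at least 10 reads in every library. The members hold 4410 such CpGs. The members were chosen by line 1 minus parental, so their values in that comparison are a description and carry no test. In the opposite direction, line 1 was at least 25 points below parental in 4634 windows.

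There were 3 libraries, 1 each from parental Hep3B, Hep3B SOX4-/- #1 (line 1) and Hep3B SOX4-/- #2 (line 2). Per the study, both knockout lines had been made earlier with CRISPR/Cas9, and the labels give no treatment. The study kept the knockout cells in medium with puromycin and names no such drug for parental cells. Culture with the drug and the knockout thus cannot be told apart here. DNA was enriched for CpGs with an EPIC capture set and treated with bisulfite, which leaves methylated cytosines as C. The study asked whether loss of SOX4, a transcription factor of the SOX family, went with methylation change, with STAT6 as its gene of interest. Whether each line is 1 clone, the edit at SOX4 and the identity of the cells were not checked here. The files hold 96987706 to 133170621 CpG reads per library, with a median of 20 to 27 reads per CpG. The parental cells have 1 library, so no comparison below has a replicate error, and values of single windows carry counting error only.

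DNA methylation is the addition of a methyl group to the cytosine of a CpG. In vertebrate genomes most CpGs are methylated, while the CpG-dense stretches at many gene starts (CpG islands) are kept free of it. Dense methylation at a gene start is known to go with a silent gene, and liver cancer cells typically show wide loss of methylation between genes together with local gains at some islands.

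Few members overlapped a gene start that could be placed. To place genes, the CpG spacing of RefSeq promoter sequences (GRCh38.p14, 250 bases before to 50 after each start) was matched to the CpG positions in the files, which are GRCh37. Of 33725 promoters, 16379 were placed, belonging to 13466 genes. A placed promoter overlapped 15 members, or 3.33% of the 450 members on chromosomes with promoter sequences, beside 13.6% of all tested windows there. Promoters with fewer than 7 CpGs, 12453 of the sequences, could not be placed. Members held fewer tested CpGs than windows in general (medians of 7 and 9). These shares therefore cannot show whether members avoid gene starts. The sequences below are the 5 protein-coding promoters touched by a member, with at least 5 CpGs tested, in which line 1 minus parental was largest over the promoter itself. They are shown because they carry the methylated CpGs at gene starts, and each is given 5′ to 3′ on the gene's own strand with its CpGs in capitals.
STAT6: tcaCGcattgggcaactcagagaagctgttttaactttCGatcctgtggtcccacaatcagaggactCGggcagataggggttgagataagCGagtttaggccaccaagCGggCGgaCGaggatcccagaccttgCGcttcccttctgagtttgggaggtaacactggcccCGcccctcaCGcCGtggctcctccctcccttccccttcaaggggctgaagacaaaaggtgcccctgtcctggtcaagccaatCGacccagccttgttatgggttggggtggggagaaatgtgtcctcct
ETFB: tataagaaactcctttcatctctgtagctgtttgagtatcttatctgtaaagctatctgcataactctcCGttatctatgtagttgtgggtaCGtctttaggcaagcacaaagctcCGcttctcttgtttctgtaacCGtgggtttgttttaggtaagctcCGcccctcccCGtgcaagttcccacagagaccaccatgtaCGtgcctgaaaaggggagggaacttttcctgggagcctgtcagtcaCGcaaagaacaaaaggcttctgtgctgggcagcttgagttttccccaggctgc
GDNF: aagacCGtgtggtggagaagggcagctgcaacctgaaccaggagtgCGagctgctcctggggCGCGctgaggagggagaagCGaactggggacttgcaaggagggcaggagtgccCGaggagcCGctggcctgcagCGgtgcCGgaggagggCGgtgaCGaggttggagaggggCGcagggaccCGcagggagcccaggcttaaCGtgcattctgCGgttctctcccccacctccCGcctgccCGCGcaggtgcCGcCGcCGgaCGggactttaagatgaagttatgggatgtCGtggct
TP73: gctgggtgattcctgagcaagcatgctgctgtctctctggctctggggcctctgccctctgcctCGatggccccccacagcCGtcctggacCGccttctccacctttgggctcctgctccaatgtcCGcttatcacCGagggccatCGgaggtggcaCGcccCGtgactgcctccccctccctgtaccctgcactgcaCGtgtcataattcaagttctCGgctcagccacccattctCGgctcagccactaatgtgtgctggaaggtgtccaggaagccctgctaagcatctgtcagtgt
SLC1A5: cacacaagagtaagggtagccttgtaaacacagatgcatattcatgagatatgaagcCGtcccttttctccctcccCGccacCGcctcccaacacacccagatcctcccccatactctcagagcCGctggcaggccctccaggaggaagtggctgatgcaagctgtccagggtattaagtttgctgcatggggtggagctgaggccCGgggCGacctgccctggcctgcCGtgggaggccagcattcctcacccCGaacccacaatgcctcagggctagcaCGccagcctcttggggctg

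The STAT6 promoter, on the minus strand, matched chr12:57504023-57504322. STAT6 carries the signal of interleukin-4. Over its 5 tested CpGs the level was 22.8% in parental cells, 95.6% in line 1 and 70.8% in line 2. All 5 CpGs were higher in both knockout lines. The ETFB promoter, on the minus strand at chr19:51858047-51858346, belongs to a subunit of the flavoprotein that passes electrons to the mitochondrial respiratory chain. It had 6.55% in parental cells, 60.3% in line 1 and 26.2% in line 2 over 8 CpGs. Here too every CpG was higher in both lines than in parental cells.

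The GDNF promoter, for a neurotrophic growth factor, lies on the minus strand at chr5:37834875-37835174 and had 31.5%, 71.1% and 36.0% over 18 CpGs in parental, line 1 and line 2, so that line 2 lay close to parental. The TP73 promoter, one of the starts of this relative of p53, lies on the plus strand at chr1:3614360-3614659. It had 29.99%, 62.2% and 69.2% over 8 CpGs, with line 2 above line 1. The SLC1A5 promoter, for a glutamine transporter, lies on the minus strand at chr19:47288022-47288321 and had 3.58%, 34.9% and 14.5% over 9 CpGs. Over these promoters line 2 thus ranged from near the parental level to above line 1.

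The letters that SOX proteins are known to prefer were searched for in these promoters on both strands. ACAAAG occurred 1 time in the ETFB promoter and ACAATG 1 time in the SLC1A5 promoter. Neither occurred in those of STAT6, GDNF or TP73. Over all 35116 promoters in the table, 16.1% held ACAAAG and 10.8% held ACAATG.

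Across the members, parental methylation was mostly low to intermediate, line 1 was high, and line 2 lay in the middle. The parental level had a median of 30.1%, with the middle 50% of members from 16.2% to 47.0% and a range of 0 to 71.6%. The line 1 level had a median of 69.5% (27.5% to 100%), and 68 members reached 90% or more. The line 2 level had a median of 48.6% (3.93% to 92.6%), and 2 members reached 90%. Over all tested windows the medians were 54.0%, 42.5% and 48.0%, the lowest being line 1.

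Line 1 minus parental had a median of 32.8 points in the members, reached 50 points in 57 of them and 91.1 points at most. Line 2 minus parental had a median of 16.3 points (-10.7 to 51.8), beside -1.01 over all windows. The parental library enters both differences, so they are not independent. Line 2 was above parental in 462 members (all windows: 33.8%), and it lay between parental and line 1 in 459 members (all windows: 52.7%). It was 10 points or more above parental in 378 members. In 76 it passed 25 points, a difference that 0.0906% of all windows showed. These 76 were among 101 such windows of all those tested. The other 25 had a median line 1 difference of 16.4 points, with a lowest value of -2.49.

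**Figure D1:**
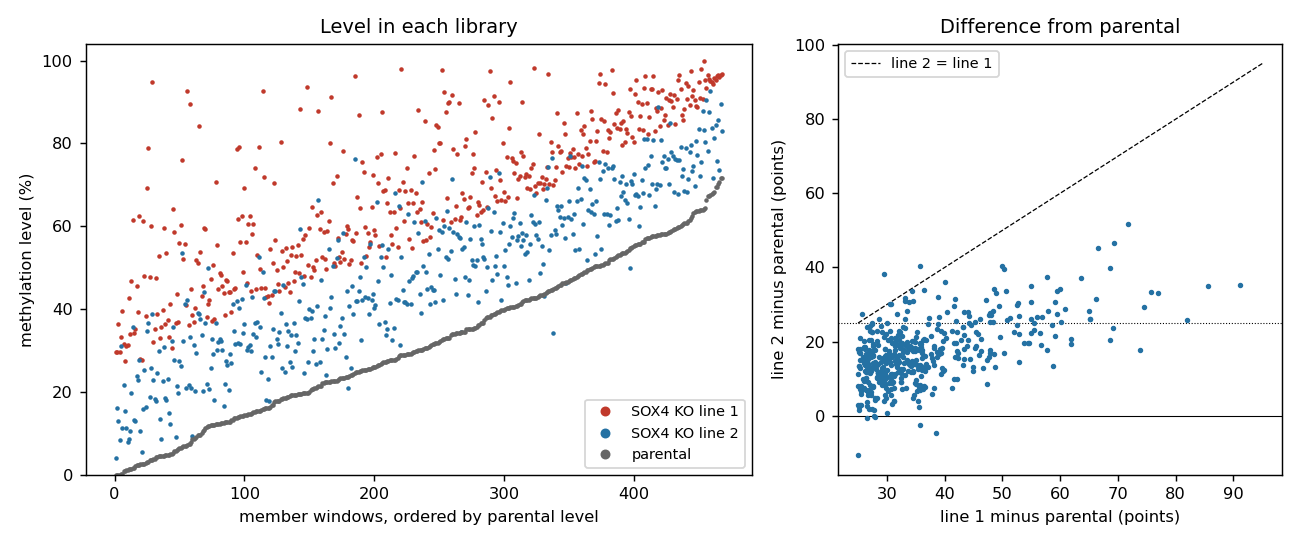
Left: methylation level (%) of each of the 468 members in parental cells (grey), SOX4 knockout line 1 (red) and line 2 (blue), ordered by parental level. Right: line 2 minus parental against line 1 minus parental, in percentage points, with a dotted line at 25 points. Blue points fill the space between grey and red, and 459 members have line 2 between the others.

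The difference of line 2 was, at the median, a similar share of that of line 1 whatever its size. The ratio of the 2 differences had a median of 0.457, with the middle 50% of members from 0.345 to 0.580. By size of the line 1 difference, the median ratio was 0.453 at 25 to 30 points (160 members), 0.460 at 30 to 40 (189), 0.474 at 40 to 50 (62), 0.467 at 50 to 60 (35) and 0.415 at 60 or more (22). The spread narrowed from an SD of 0.241 in the first of these classes to 0.130 in the last. In all 3 classes from 40 points upward, every member had line 2 between parental and line 1.

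Most single CpGs of the members were higher in both knockout lines. Of the 4410 CpGs, 4140 (93.9%) were higher in line 1 and 3801 (86.2%) in line 2 than in parental cells, while over all windows the shares were 23.7% and 26.7%. Every CpG was higher in line 1 in 318 members and in line 2 in 190. Methylated against unmethylated reads were compared at every CpG by a Fisher exact test, with p-values adjusted by Benjamini-Hochberg over all 2204675 CpGs. Calls needed an adjusted p below 0.05 together with 25 points or more of difference. These tests compare libraries and not conditions. Line 2 was called higher than parental at 443 member CpGs (10.05%), beside 0.0838% of all CpGs, and 180 members held at least 1 CpG with an adjusted p under 0.05. With every CpG thinned to its smallest depth, 212 were called. Line 2 was called lower at 0 member CpGs (all CpGs: 0.718%), and 2 had an unadjusted p under 0.05 in that direction. The parental library, which the rule used, enters these line 2 counts, so they are not independent of the choice of members. Line 1, whose contrast chose the members, was called higher at 2067 CpGs (all CpGs: 0.601%), from which nothing is read. Line 1 was called above line 2 at 601 CpGs (all CpGs: 0.183%) and below it at 1 (all CpGs: 1.07%), and this comparison too uses a library of the rule.

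To see values that did not choose the window, alternate CpGs were set aside. Of 50653 windows with at least 5 CpGs in each set, 139 passed 25 points on the first set. On the other CpGs of those windows, line 1 minus parental had a median of 31.6 points (33.0 on the CpGs that chose) and was above 0 in 138. Line 2 minus parental had a median of 14.7 points and was also above 0 in 138. Neighbouring CpGs can lie on the same reads, so the sets are not separate molecules.

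Windows with few CpGs were members more often. They held a median of 7 tested CpGs, beside 9 over all windows. Of windows with 6 or 7 CpGs, 0.565% were members, against 0.262% at 16 to 30 CpGs and 0.0754% at 31 or more, where 12 members were found among 15920 windows. The line 2 ratio was 0.322 in those 12 and 0.443 to 0.497 in the other density classes. Falls showed a density gradient too. Over all windows, line 1 minus parental had a median of -2.99 points at 5 CpGs and -0.284 at 31 or more.

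By parental level, the share of members was highest in the partly methylated windows, with 1.14% at 10 to 25% and 1.17% at 25 to 50%. It was 0.625% at 50 to 75%, 0.450% at 5 to 10% and 0.197% below 5%, and the rule cannot be met above 75%. In the class from 25 to 50%, line 2 minus parental had a median of 16.6 points in the members and -4.39 over all windows. For line 1, the median over all windows was -8.49 points in this class and 0 below 5%, so partly methylated windows also fell more. In the class below 5%, 44 members reached a median of 37.8% in line 1 and 18.2% in line 2 from a parental median of 2.63%.

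**Figure D2:**
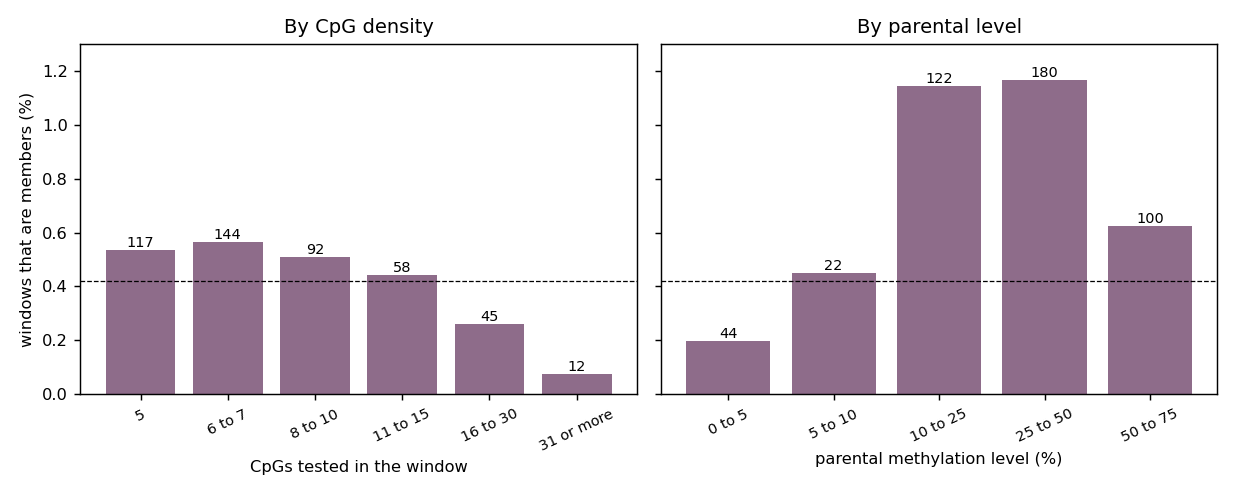
Share of tested windows that are members (%, bars, from 0), by the number of CpGs tested in the window (left) and by parental methylation level (right). Numbers above the bars are members and the dashed line is the share over all windows, 0.42%. The share falls to 0.0754% in the most CpG-dense windows and is highest at parental levels of 10 to 50%.

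Read depth in the members differed from that elsewhere. The reads per window of line 1 over those of parental cells, each as a share of its library, had a median of 0.874 in the members and 0.991 over all windows, and for line 2 these were 0.922 and 0.986. The part of this difference in the result was not tested. With every CpG thinned to its smallest depth, 478 windows met the rule, with a median line 2 difference of 16.4 points.

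Away from promoters, the members were about as far from placed gene starts as other windows. The distance to the nearest placed start had a median of 31.7 kb, beside 28.9 kb, and 38.7% of members lay over 50 kb away, beside 38.9% of all windows. Within 2 kb of a placed start the shares were 13.8% and 22.6%, with CpG-poor starts missing from both.

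Most members stood alone. In 337 members no other lay within 20 kb, while 131 were in 47 groups of 2 or more. A member in the next tested window was present for 103 members (22.01%), beside 0.791% of all windows. Of the members, 300 had no abutting tested window and 168 had one, and for 46 of these an abutting window was itself a member. Over all tested windows abutting a member, members included, line 1 minus parental had a median of 6.26 points on one side (99 windows, 24 of them members) and 5.57 on the other (94 windows, 24 of them members). At 2 kb it was 0.52 and 0.16 points. In the 100 kb bins around the members, the other windows averaged a median of -0.84 points in line 1, beside -3.66 for the bins of all windows.

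**Figure D3:**
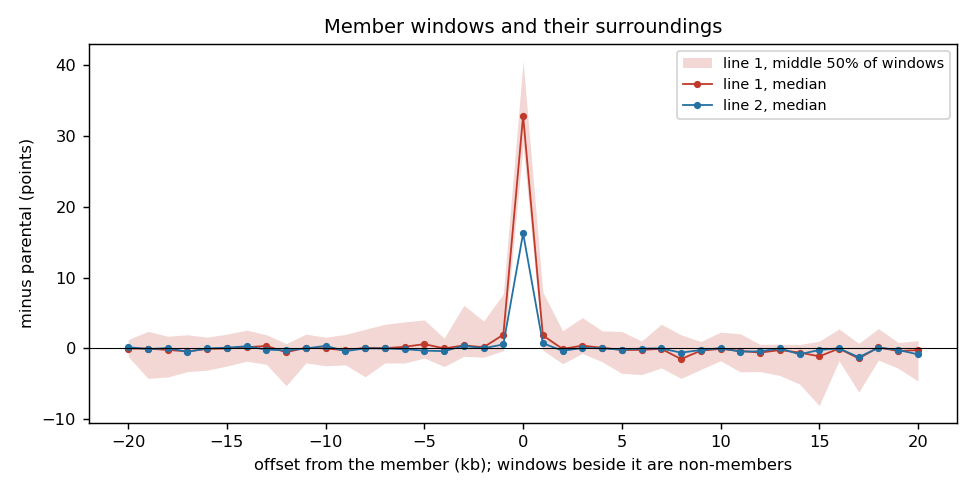
Line 1 minus parental (red, median, with the middle 50% of windows shaded) and line 2 minus parental (blue, median), in percentage points, for the 468 members at offset 0 and for non-member windows at offsets of up to 20 kb. The line 1 median is 32.8 points at the members and 1.95 and 1.84 points in abutting windows, which are below 25 points by their selection as non-members.

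The longest run was on chromosome 4, where all 21 tested windows of chr4:6331001-6466000 were members, with 187 CpGs. They lie between the placed starts of WFS1, a protein of the endoplasmic reticulum mutated in Wolfram syndrome, and PPP2R2C, a regulatory subunit of protein phosphatase 2A. Parental levels in the run ranged from 2.64% to 61.6% (median 23.6%), line 1 from 48.0% to 92.7% (median 80.3%) and line 2 from 25.3% to 77.8% (median 44.6%). In each of the 21 windows line 2 was above parental, by 13.8 to 39.9 points. The edge was sharp after the run, but its sharpness before the run could not be judged. In the 60 kb before the run, 12 tested windows had a median parental level of 89.9% and a line 1 difference of 3.01 points. Most of these were too highly methylated in parental cells to rise by 25 points. Those nearest the run, chr4:6325001-6326000 and chr4:6328001-6329000, were at 80.7% and 67.1% in parental cells. They were higher than parental by 9.11 and 10.8 points in line 1 and by 6.11 and 12.9 points in line 2. In the 60 kb after the run, 7 windows had a median parental level of 15.8% and a line 1 difference of -3.12 points. The second-highest line 1 difference of all members was in this run, at chr4:6426001-6427000, with 7.17% in parental cells, 92.7% in line 1 and 42.2% in line 2. Chromosome 4 had the highest share of members (0.882%, 41 windows), which rested on this run. Without it the share was 0.432% (20 windows), below chromosomes 16 (0.708%), 12 (0.629%), 21 (0.525%), 19 (0.460%), 11 (0.444%) and 17 (0.439%). The lowest share was on chromosome 13 (0.233%, 6 windows).

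**Figure D4:**
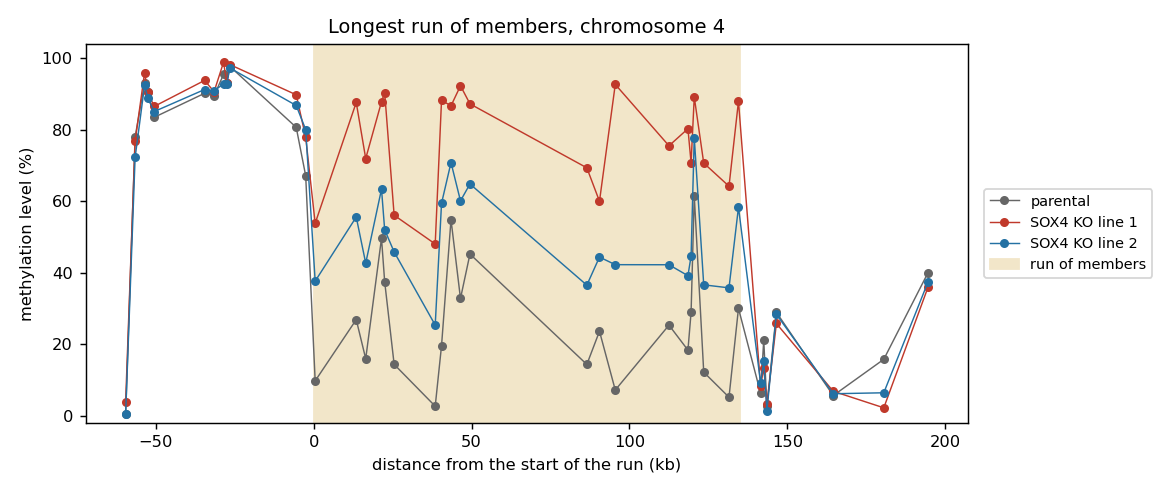
Methylation level (%) of the tested windows in and around the longest run of members, by distance from its start in kb (shaded: the run). In the shaded part line 1 (red) lies highest, parental (grey) lowest and line 2 (blue) between in all 21 windows, and outside it line 1 minus parental lies between -13.6 and 10.8 points.

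The next longest runs held 6 members each. A run is made of tested windows in order, and untested ground can lie between them. One reached the start of ADAM12, a membrane metalloprotease, at chr10:127932001-128078000. Its members lay at chr10:127932001-127946000 and chr10:128075001-128078000, with no tested window between these stretches. Its windows were at 1.54% to 64.0% in parental cells, 55.6% to 100% in line 1 and 35.7% to 83.3% in line 2. The window at the ADAM12 start itself was at 64.0%, 100% and 83.3%. The other run, at chr4:41527001-41644000, lies between the placed starts of UCHL1 and TMEM33 and had medians of 21.5%, 65.4% and 43.0%. It held no tested window between chr4:41542000 and chr4:41614001.

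Among looser groups, 8 members of 18 tested windows were at chr2:237071001-237124000 around the start of GBX2, a homeobox factor of the developing hindbrain border. Their parental levels ranged from 13.96% to 57.3%, line 1 from 61.8% to 86.3% and line 2 from 31.4% to 74.5%. Another 4 of 5 tested windows at chr17:75413001-75423000 lay between placed starts of SEPTIN9, a filament-forming GTPase, and upstream of the nearer start. They included the largest line 1 difference of all, at chr17:75422001-75423000, 24566 bp upstream of that start. Its 8 CpGs were at 3.61% in parental cells, 94.7% in line 1 and 38.8% in line 2. The pooled reads gave exact Clopper-Pearson 95% intervals of 1.34% to 7.70%, 88.7% to 98.0% and 32.9% to 45.5%. The abutting window, chr17:75421001-75422000 with 14 CpGs, was at 15.9%, 92.8% and 48.99%.

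The other members with the 10 largest line 1 differences are given by the nearest placed protein-coding start. CXXC5, a CXXC zinc finger protein of Wnt signalling, had 4 members in 5 tested windows, of which chr5:139049001-139050000 was at 7.43%, 89.5% and 33.2%. A second one, chr5:139040001-139041000 with 23 CpGs, was at 19.8%, 93.7% and 37.6%. JAG1, a Notch ligand, had a member 2647 bp downstream of its start (chr20:10651001-10652000) at 3.19%, 78.9% and 36.6%. INAVA, an adaptor of innate immune signalling, had one 3342 bp downstream (chr1:200864001-200865000) at 9.72%, 84.3% and 38.9%. ZFP36L1, an RNA-binding protein of mRNA decay, had one 5960 bp downstream (chr14:69256001-69257000) at 28.9%, 98.0% and 52.7%. In these 5 windows line 2 lay between 33.2% and 52.7%. The window chr12:101480001-101481000, 123016 bp downstream of the start of SLC5A8, was at 6.81%, 76.1% and 53.5%.

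The window at STAT6 held the largest line 2 difference. With CpGs at chr12:57504213-57504424, it was the only member with line 2 at least 50 points above parental. It also overlaps the placed promoter of LOC124902946, a long non-coding RNA on the plus strand. That promoter holds 12 of the tested CpGs and the overlapping STAT6 promoter holds 5, so the window is not particular to STAT6. The mean over 14 CpGs, within 212 bases, was 24.5% in parental cells, 96.3% in line 1 and 76.3% in line 2. Single CpGs ranged from 9.52% to 30%, from 90.3% to 100% and from 64.7% to 92.9%, so the lines did not overlap parental at any CpG. The pooled intervals were 21.6% to 29.3%, 94.0% to 97.9% and 69.8% to 81.2%. Line 2 was called higher at 6 of the 14 CpGs, with 232 reads there beside 517 in parental cells. In total line 2 had more CpG reads than parental cells (133170621 and 104702738), so its share of reads in this window was low. Over the members, the line 2 share over the parental share had a median of 0.922 and a lowest value of 0.353. The part of this low depth in the line 2 level was not tested. Few CpGs were tested close by. The next one before, at position 57502183, was at 0 in parental cells, 61.5% in line 1 and 12.5% in line 2, with 13 to 17 reads per library. The next one after, at 57505780, was at 26.1%, 0 and 16.7%, with 17 to 24 reads. At 57505822, 57505883 and 57505962, parental cells were at 6.90%, 0 and 0, with 10 to 42 reads per library. Line 1 was at 0 at each of these, and line 2 was at 5.56%, 7.14% and 0. The nearest tested windows had line 1 minus parental at 3.47 points 11 kb before and -0.72 points 14 kb after.

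**Figure D5:**
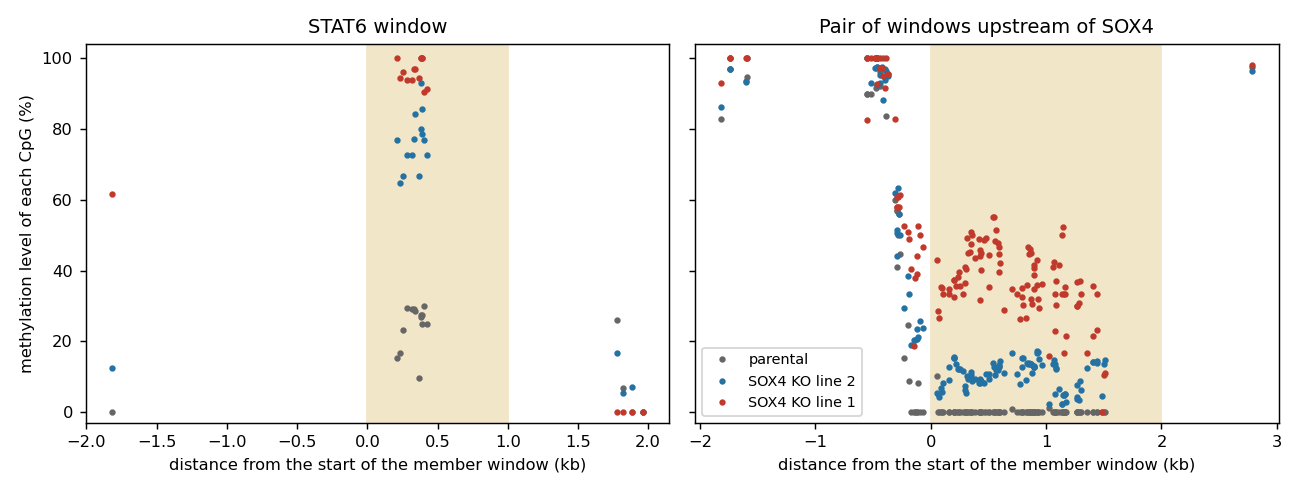
Methylation level (%) of single CpGs at the STAT6 window (left) and at the pair of member windows upstream of SOX4 (right), by distance from the start of the member window in kb (shaded: members). In the STAT6 window the parental CpGs (grey) lie at or below 30% and those of both knockout lines at or above 64.7%. Upstream of SOX4 nearly all parental CpGs lie at 0, with line 2 (blue) below most of line 1 (red).

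The other members with the largest line 2 differences were at varied distances from gene starts. The nearest placed protein-coding start is the one named here. The window at chr16:4094001-4095000, 163287 bp upstream of the start of CREBBP (a histone acetyltransferase), was at 21.3%, 87.8% and 66.5%. At chr19:1172001-1173000, 32777 bp upstream of STK11 (a tumour suppressor kinase), the levels were 27.8%, 77.8% and 68.1%. At chr1:154942001-154943000, 3852 bp downstream of a start of SHC1 (an adaptor of receptor tyrosine kinases), they were 34.0%, 91.7% and 71.4%. In all of these line 2 was nearer to line 1 than to parental. Further windows of this kind were chr12:117483001-117484000, with 15.4%, 79.0% and 52.6%, and chr4:6371001-6372000 in the longest run, with 19.6%, 88.3% and 59.4%. The window chr2:237119001-237120000, 41972 bp upstream of GBX2, was at 26.4%, 76.7% and 65.8%.

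In 3 members line 2 was above line 1. The window at TP73 (chr1:3614001-3615000) was at 30.2%, 65.8% and 70.6%. The window chr1:2180001-2181000, 35842 bp upstream of FAAP20, was at 11.7%, 41.1% and 50.01%, and chr11:2012001-2013000, at LINC01219, was at 4.95%, 30.7% and 32.3%. In these windows line 1 had 57 to 121 reads.

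The densest member lay upstream of SOX4 itself. The window chr6:21588001-21589000 held 69 tested CpGs and began a pair with the next window, 4982 and 3982 bp upstream of the matched SOX4 start. Its level was 0.16% in parental cells, 39.6% in line 1 and 11.3% in line 2, with exact 95% intervals of the pooled reads of 38.8% to 41.9% in line 1 and 10.6% to 12.1% in line 2. The second window, with 30 CpGs, was at 0.04%, 29.7% and 8.31%. Of the 99 CpGs of the pair, 96 were at 0 in parental cells, while 1 was at 0 in line 1 and none in line 2. The window just before the pair, which is no member, was at 55.7%, 71.9% and 63.3%. The window that holds the matched SOX4 start, chr6:21593001-21594000, is no member and was at 8.66%, 5.99% and 8.21%.

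Only 5 members were both CpG-dense (20 or more CpGs) and nearly free of methylation (under 10%) in parental cells, among 14290 such windows tested. Apart from the pair at SOX4, they were near PRKCZ, RIPOR1 and SYF2. The window near RIPOR1 (chr16:67572001-67573000, 636 bp downstream of its start) was at 0.87%, 31.5% and 21.8%. The one 60491 bp downstream of the start of PRKCZ, an atypical protein kinase C (chr1:2066001-2067000), was at 2.87%, 38.4% and 16.3%. The one 7008 bp upstream of SYF2, a splicing factor (chr1:25566001-25567000), was at 4.49%, 33.1% and 13.5%. None of the 5 passed 40% in line 1.

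In lists of genes relevant to the cells and the study, few genes had a member within 5 kb of a placed start. Over all genes 91 of 13311 did (0.684%). The counts were 1 of 65 developmental transcription factors (HOXA3), 1 of 8 SOX genes (SOX4), 1 of 16 genes of JAK, STAT and interleukin-4 signalling (STAT6), 1 of 18 folate and one-carbon enzymes (MTHFD1L), 1 of 18 tumour suppressors and Wnt antagonists (BMP4), 1 of 13 writers and erasers of methylation (DNMT3A) and 1 of 237 zinc finger genes of chromosome 19 (ZNF587B). There were 0 among 9 liver transcription factors, 4 hepatocyte genes, 16 imprinted genes and 28 cadherins and protocadherins. The lists are not complete. GBX2 and LMX1B, homeobox genes with members within 5 kb of a placed start, are not on the first of them. With 1 or 0 genes per list, nothing particular to a list is read from these counts.

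MTHFD1L, the mitochondrial enzyme that makes formate from 10-formyltetrahydrofolate, had its member 379 bp downstream of the start, at 9.02% in parental cells, 51.8% in line 1 and 29.4% in line 2. BMP4, a growth factor of the TGF-beta family, was at 12.3%, 44.9% and 32.0%. HOXA3, a homeobox factor of body patterning, had abutting members at 41.9%, 76.9% and 56.8% and at 67.4%, 96.5% and 78.1%. DNMT3A, which sets new methylation, was at 32.7%, 61.6% and 42.1% in a window 1000 bp downstream of one of its starts. ZNF587B, a zinc finger gene, was at 50.2%, 75.5% and 63.1%. In each of these windows line 2 lay between the others.

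The remaining members with a placed promoter were at GET1 (57.0%, 96.3% and 74.0%), MUSTN1 (35.2%, 72.9% and 51.8%), LAT (49.01%, 78.9% and 71.1%), ANKS1B (36.1%, 65.8% and 41.7%), SLC25A22 (43.7%, 70.2% and 43.1%), LIMCH1-AS1 (4.88%, 37.3% and 23.1%) and LOC124903622 (50.5%, 96.8% and 71.3%), each given as parental, line 1 and line 2. LAT is an adaptor of T cell receptor signalling and SLC25A22 a mitochondrial glutamate carrier. In the windows at ANKS1B and SLC25A22 line 2 differed from parental by 5.59 and -0.61 points.

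At the threshold, the members just inside had line 1 differences of 25.01 (chr22:39051001-39052000), 25.03 (chr7:111800001-111801000) and 25.03 points (chr16:2338001-2339000). The windows just outside had 24.99 (chr4:2930001-2931000), 24.96 (chr1:242686001-242687000) and 24.95 points (chr8:128822001-128823000). Line 2 was 8.02, 2.86 and 11.3 points above parental in the former, and 8.35, 12.998 and -8.73 points from it in the latter.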

How the data were processed

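Bisulfite reads of captured DNA from 3 libraries were analysed. The deposited files give, for each strand of each CpG, counts of total, context and methylated reads, and a methylation level as a fraction that the authors computed as methylated over context reads. The aligner, caller, filters and duplicate removal are not given in the sources used here. The submitters' processing notes name GRCh37 (hg19). Strands were summed, and a CpG was assigned by the position of its G. Fisher exact tests were 2-sided, one per CpG and pair of libraries. Promoters were placed by at least 7 consecutive CpGs with matching spacing, exceeding the next best match by at least 3 CpGs. Of those placed, 75 were out of order with their neighbours by over 200 kb and were dropped. Chromosome 8 promoters were not used here. Intervals are at 95% and leave out all but counting error, and PCR copies make reads fewer independent molecules than they seem.

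Named windows are the 10 members with the largest line 1 difference, the 10 with the largest and the 5 with the lowest line 2 difference, the longest 3 runs, the 3 windows on each side of the threshold, STAT6, and members at listed genes. Other windows, groups and promoters were picked after their values were seen. The members and lists were chosen with earlier results of these data known. The rule and the test were checked on simulated data. Alternatives covered coverage, CpG number, weighting, window size and shift, threshold, strand, depth, alternate CpGs, chromosomes and libraries. Tests used scipy 1.17.1, tables pandas 2.3.3 and numpy 2.4.6, and figures matplotlib 3.10.9, under Python 3.11.15.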

Additional observations from a re-analysis of the deposited data

Results flagged for a closer look

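In 6 members line 2 was at or below parental while line 1 was at least 25 points above it, and this difference between the lines was not tested. Line 2 minus parental was -10.7 points at chr8:23565001-23566000, -4.75 at chr12:12674001-12675000, -2.64 at chr7:150086001-150087000, -0.614 at chr11:796001-797000 (SLC25A22), -0.275 at chr8:134545001-134546000 and -0.0641 at chr10:95117001-95118000. These windows held 5 to 9 CpGs, with 72 to 324 reads per library, and in the first the line 1 difference was 25.1 points. Outside the autosomes, 3 of 1646 windows of chromosome X (0.182%) had line 1 at least 25 points above parental, with line 2 at 9.85 to 30.3 points.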

How the results depend on the processing

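Over the alternatives, 108 of 143 recomputed values stayed within 1.5 times of the value reported and 35 did not. By limits set separately for each kind of result, 89 stayed and 54 moved. Only the median line 2 difference could change sign, as the other results cannot be negative, and it did so in 0 cases. Line 2 lay between parental and line 1 in 93.8% to 100% of members, and its median difference from parental was 14.1 to 26.4 points. The counts moved with the limits that define a window or a member. With at least 20 reads per CpG there were 238 members, of which 43 passed the threshold in line 2 and 233 had line 2 between. With at least 3 CpGs per window these counts were 952, 166 and 906, with 196 beside another member, and with at least 10 CpGs they were 130, 21 and 130, with 29 beside another. A difference of 20 points gave 720 members, 170 of them also in line 2 and 156 beside another. A difference of 30 points gave 308 members, 35 also in line 2 and 305 between, and 50 points gave 57, 1 and 57, with 16 beside another. Windows of 2 kb left 66 beside another. Alternate CpGs gave 139, 25 and 134. The rule applied to line 2 in place of line 1, with coverage asked of parental and line 2 alone, gave 110 windows, and leaving out line 2 gave 473 members.

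The median CpG density of the members, per kb, was 4 with at least 3 CpGs, 14 with at least 10, 3.5 in windows of 2 kb and 14 in windows of 500 bp, as the minimum itself sets it. Their median parental level was 30.8% at 5 reads, 29.1% at 20 reads, 29.7% with 3 CpGs, 34.1% with 10 CpGs, 28.2% with read-weighted means, 29.8% with windows shifted by 500 bp and 29.2% in windows of 500 bp. It was 33.0%, 27.0% and 22.4% at differences of 20, 30 and 50 points, and 29.4% without chromosomes 8, 11, 13 and 21. Without the longest run of members, an alternative chosen after seeing the data, it was 30.5%, with 447 members, 67 of them also in line 2 and 82 beside another. CpGs called higher in line 2 numbered 212 after thinning to the smallest depth and 281 at an adjusted p under 0.01, and those called higher in line 1 numbered 1371 at 20 reads.

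No paired analysis was possible because 1 library stands for the parental cells. In 288 members 0 CpGs had an adjusted p under 0.05 in line 2. Windows with fewer CpGs or reads than the minimum, and CpGs outside the capture, were not analysed here.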
